A study of Homo sapiens with 6 samples.

Results

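The 10 genes described here encode TRAIL and FAS signaling at the cell surface. They are TRAIL itself (TNFSF10), its 4 membrane receptors (TNFRSF10A, TNFRSF10B, TNFRSF10C and TNFRSF10D), the FAS receptor, the adaptor FADD, the initiator caspases CASP8 and CASP10, and CFLAR. They were taken by name, and all 10 were found among the 19792 gene symbols of the table. RNA-seq was performed on BT-549 cells, a human triple-negative breast cancer line, that carried a puromycin-selected vector with a doxycycline (DOX)-inducible WDR5 shRNA. Vehicle (0.1% DMSO) was given to 3 cultures, and the other 3 received DOX at 500 ng/ml. By the study's figure legend, treatment lasted a week. The WDR5 shRNA was present in all 6 cultures, and none served as a control for DOX alone.

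Each gene has a single level here, the mean normalized count that the authors deposited over all 6 libraries, vehicle and DOX together. The table's other columns hold the authors' own comparison of DOX with vehicle and were not used, so no difference between the groups is given, and the spread between cultures and the depth of each library are unknown. The mean normalized counts sum to 26551206 over all genes, with a median of 187 per gene. The targeted gene, WDR5, has a mean of 1143 over both groups, which does not check its silencing. All 5 mesenchymal markers were abundant, with a lowest mean normalized count of 4093 (CDH2) and a highest of 48038 (CD44). The estrogen and progesterone receptor genes ESR1 and PGR, which triple-negative cells lack, were at 0.790 and 0.801. ERBB2, the third gene of that definition, was at 1221. The leukocyte markers PTPRC and CD14 were at 44.7 and 24.0, and CD3E had no row in the table. Of 5 epithelial markers, KRT18 was the highest at 435, CDH1 was at 59.6 and EPCAM at 1.30, and the higher of 2 endothelial markers, PECAM1, was at 2.86.

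TRAIL and FAS ligand bind trimeric receptors whose cytoplasmic death domain recruits FADD. FADD in turn gathers procaspase-8 and procaspase-10, which activate each other there, and CFLAR (c-FLIP), a caspase-8 relative without protease activity, enters the same complex and modulates that step. TRAIL has agonist receptors with a death domain and decoy receptors that lack a functional one, and tumor cells often carry several of them.

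The 10 genes covered a wide range of levels. The plot of levels by gene shows 5 genes (TNFRSF10B, FAS, CFLAR, CASP8 and FADD) above the median of all genes and 5 (TNFRSF10D, TNFRSF10A, TNFSF10, TNFRSF10C and CASP10) below it. A count of 10 or more was found for 8 of the 10 genes and for 68.5% of all genes in the table, so the members were not set apart by that measure. Together the 10 genes held 0.0323% of the summed counts.

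**Figure D1:**
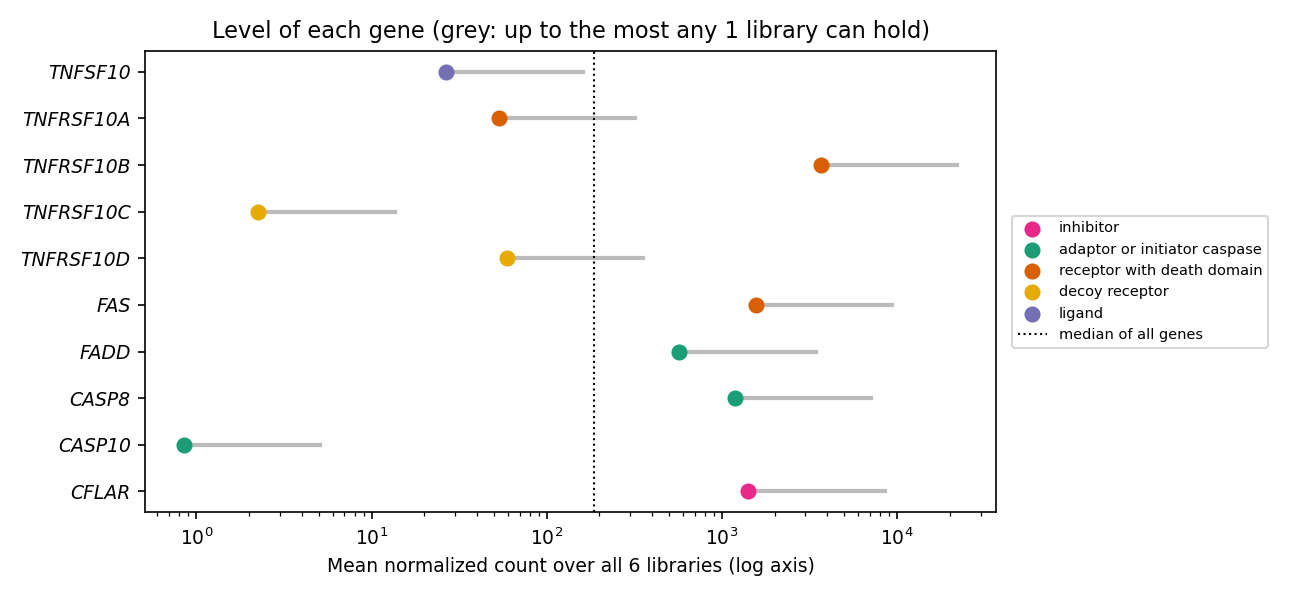
Mean normalized count over all 6 libraries for each of the 10 genes (points, log axis, colored by role), with the median of all genes as a dotted line. Each grey bar runs to 6 times the mean, the most that any 1 library can hold. The points run from 0.850 for CASP10 to 3686 for TNFRSF10B and are not divided by transcript length.

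Of the agonist receptors, TNFRSF10B (DR5, ENSG00000120889.13) had a mean normalized count of 3686, above 91.7% of all genes. TNFRSF10A (DR4, ENSG00000104689.10) had a mean normalized count of 53.2, above 41.5% of all genes. Counts rise with transcript length, so ratios between genes are given per kb of the canonical transcript in GENCODE 44 unless another length is named. On that scale, TNFRSF10B was the highest of the 10 genes at 922 normalized counts per kb, and TNFRSF10A stood at 19.8 per kb, a ratio of 46.6. The ratio was between 23.7 and 46.6 over the 3 transcript lengths tried. Because counts cannot be negative and each group has 3 of the 6 libraries, the mean of TNFRSF10A in either group was at most 106 normalized counts.

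The decoy receptors were low. TNFRSF10D (DcR2), which carries a truncated death domain, had a mean normalized count of 59.1, or 16.7 per kb. TNFRSF10C (DcR1), anchored to the membrane by a lipid, had a mean normalized count of 2.26, or 1.62 per kb. No library could have held more than 13.6 normalized counts of TNFRSF10C. Of the summed level per kb of the 4 TRAIL receptors, TNFRSF10B made up 96.0%, TNFRSF10A 2.06%, TNFRSF10D 1.74% and TNFRSF10C 0.169%. Both decoys together were 1.91% of this sum, and between 1.35% and 2.36% with the other lengths or with no division by length. Without a spread between libraries, the order of TNFRSF10A and TNFRSF10D is not established. TNFRSF10D had the higher mean normalized count and the lower level per kb.

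The 4 TRAIL receptor genes lie side by side on chromosome 8, where GENCODE 44 places them between 23020133 and 23225102 of GRCh38, a stretch of 205 kb. TNFRSF10C, with the lowest level per kb of the 4, lies between TNFRSF10B and TNFRSF10D. The table gives 1 value per gene, and related genes can share reads. No stretch of 50 bases in the canonical transcript of any of the 10 genes was found in a transcript of another of the 10. For TNFRSF10C, 30.8% of such stretches were also in transcripts of overlapping gene models (ENSG00000284956 and ENSG00000284948) that had no row in the table. With an annotation that holds these models, reads from these stretches could not be assigned to TNFRSF10C alone. Whether the authors' annotation held them is not known, and whether they lowered the count of TNFRSF10C was not tested.

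**Figure D2:**
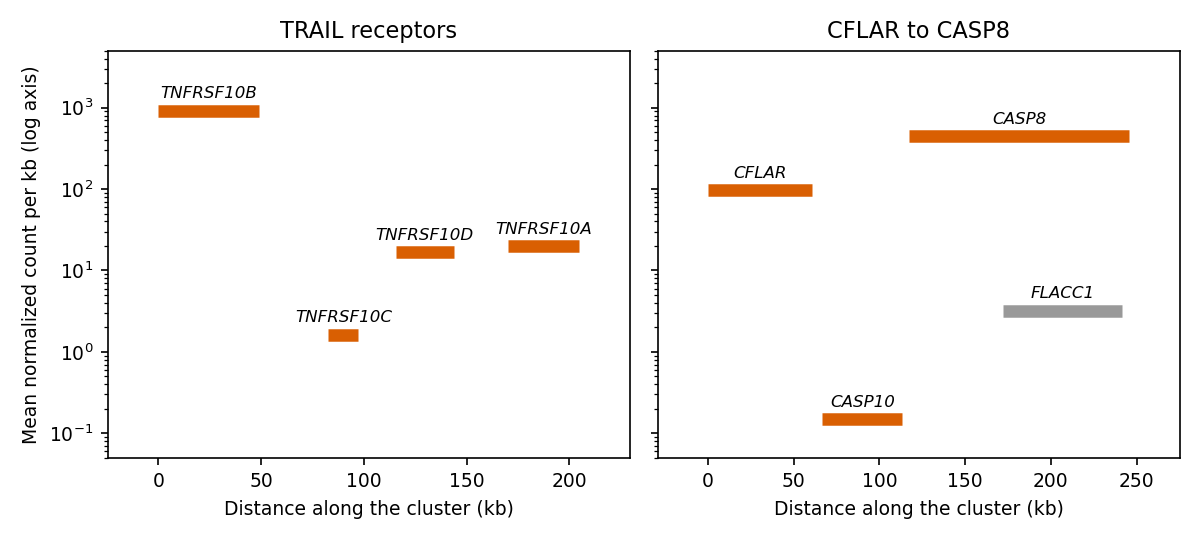
Mean normalized count per kb of canonical transcript over all 6 libraries (log axis) against distance in kb along the TRAIL receptor cluster (left) and the CFLAR, CASP10 and CASP8 cluster (right), where each bar is the span of a gene (grey: FLACC1, which lies within CASP8 on the other strand). TNFRSF10B at 922 per kb lies beside TNFRSF10C at 1.62, and CASP10 at 0.150 lies between CFLAR at 96.8 and CASP8 at 448.

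The ligand TRAIL and the FAS receptor lay on either side of the median. TNFSF10 (ENSG00000121858.11; chromosome 3 of GRCh38, from 172505508 to 172523475) had a mean normalized count of 26.7, above 37.6% of all genes. Its level per kb was 14.3, and that of TNFRSF10B was 64.7 times as high. Over the 3 transcript lengths tried, this ratio was between 64.7 and 94.7. FAS (ENSG00000026103.25; chromosome 10, from 88953813 to 89029605) had a mean normalized count of 1566, above 79.8% of all genes, and 424 per kb. TNFRSF10B stood at 2.18 times the level of FAS per kb of canonical transcript and at 13.8 times when the exons of all 61 annotated FAS transcripts, which cover 29.3 kb, were counted as its length. FASLG, the gene for FAS ligand, had no row in the table.

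The promoters of TNFSF10 and FAS are shown because these genes, ligand and receptor, lay on opposite sides of the median and differed in CpG content, the dinucleotide that is dense in CpG-island promoters. Each sequence is from RefSeq (GRCh38.p14), runs from 250 bases before to 50 bases after the transcription start on the gene's own strand, and has every CpG in capitals. The window of TNFSF10 is chr3:172523381-172523680 (minus strand) and that of FAS is chr10:88990548-88990847 (plus strand).
TNFSF10: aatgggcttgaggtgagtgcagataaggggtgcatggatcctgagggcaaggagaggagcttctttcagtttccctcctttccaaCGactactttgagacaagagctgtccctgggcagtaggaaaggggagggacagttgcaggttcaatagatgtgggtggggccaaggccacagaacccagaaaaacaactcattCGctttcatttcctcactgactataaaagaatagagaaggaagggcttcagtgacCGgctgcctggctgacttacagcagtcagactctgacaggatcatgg
FAS: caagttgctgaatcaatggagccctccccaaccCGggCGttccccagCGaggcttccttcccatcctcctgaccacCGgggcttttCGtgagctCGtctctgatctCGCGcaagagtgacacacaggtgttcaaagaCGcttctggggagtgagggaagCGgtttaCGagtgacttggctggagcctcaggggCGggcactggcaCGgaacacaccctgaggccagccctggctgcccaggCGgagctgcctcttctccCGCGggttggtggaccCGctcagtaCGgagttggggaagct
The TNFSF10 window holds 3 CpGs and the FAS window 18, beside a median of 14 over all 35116 RefSeq promoter windows of the same length. The letters TATAAA, searched on both strands, occur in the TNFSF10 window and not in that of FAS, and 11.5% of all windows hold them. Those of FADD, CFLAR and CASP8 hold 36, 21 and 6 CpGs. The CFLAR window is that of a start 2552 bases from the start of the canonical transcript. CpG content of these windows and level were not ordered alike, since CASP8 had few CpGs in its window and a level of 448 per kb. That window, from 201260286, is of the canonical start alone, and the annotated gene begins upstream at 201233443. The level is of the whole gene, which has 25 annotated transcripts, so the level from this start is unknown. FAS has the same limit. Its window is from 88990548, and the annotated gene, with 61 transcripts, begins upstream at 88953813. The windows describe sequence only, and no chromatin was measured in these samples.

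FADD, the adaptor, had a mean normalized count of 571, above 63.3% of all genes, and 334 per kb. FADD (ENSG00000168040.5) lies on chromosome 11 from 70203296 to 70207390 and has 2 exons. An antisense lncRNA model, ENSG00000254721, covers 59.2% of its exon bases. The libraries were stranded, but the strand setting of the authors' counting is not given in the sources used here, so reads of FADD and of this antisense model may have been mixed.

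The initiator caspases lay far apart in level. CASP8 (ENSG00000064012.24), the main initiator downstream of both receptors, had a mean normalized count of 1191 and a level of 448 per kb. CASP10 (ENSG00000003400.16), its closest relative, had a mean normalized count of 0.850, above 15.0% of all genes. No library could have held more than 5.10 normalized counts of CASP10, and neither group a mean above 1.70. Per kb of canonical transcript, the level of CASP8 was 2987 times that of CASP10, and between 1194 and 1727 times with the other lengths. The denominator is very uncertain, and no interval can be given without counts of single libraries. Of the 50-base stretches of CASP10, 1.41% were found in transcripts of other genes, and none in CASP8 or CFLAR.

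CFLAR (ENSG00000003402.21) had a mean normalized count of 1414, above 78.3% of all genes. How it compared with CASP8 depended on the length used. The canonical CFLAR transcript has 14.6 kb, against 2.66 kb for CASP8, and gave CFLAR a level of 96.8 per kb, which is 0.216 times that of CASP8. With the median length of the protein-coding transcripts (1.23 kb for CFLAR and 1.91 kb for CASP8), the ratio was 1.84. The plot of levels per kb shows this range as the widest of the 10 genes. The table does not separate the long and short CFLAR transcripts, whose proteins differ in their carboxyl-terminal part, so the order of CFLAR and CASP8 is not established. CFLAR, CASP10 and CASP8 lie in that order on chromosome 2 of GRCh38, all on the plus strand, from 201116154 to 201361836.

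**Figure D3:**
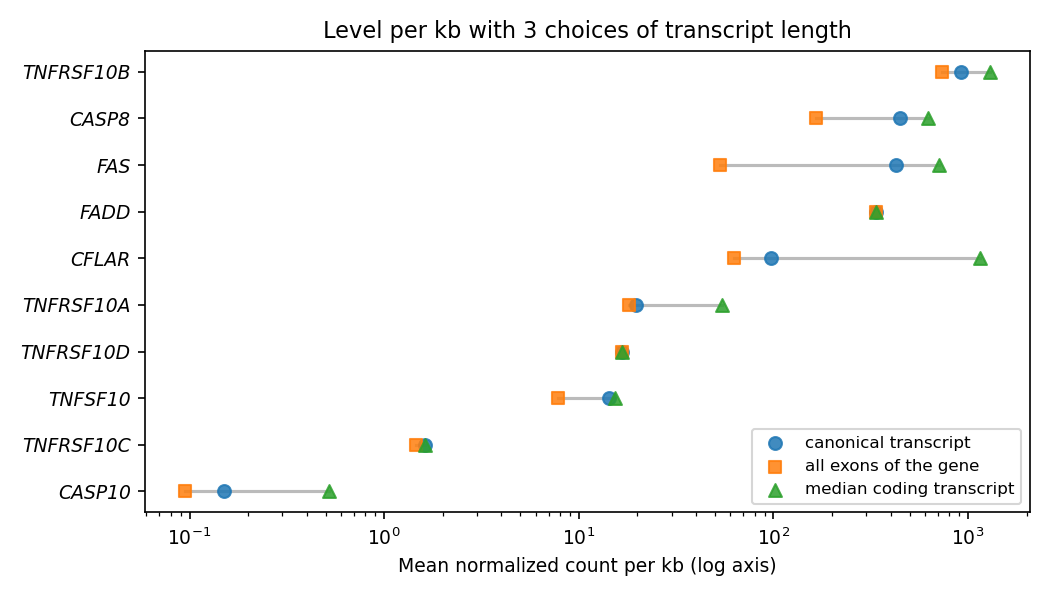
Mean normalized count per kb (log axis) for each of the 10 genes with 3 choices of length: the canonical transcript (circles), all exons of the gene (squares) and the median protein-coding transcript (triangles). TNFRSF10B is highest and CASP10 lowest with each choice, whereas CFLAR spans 62.9 to 1150 per kb.

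Other genes of the pathway were counted in lists by role, as shown in the plot of pathway genes. Of 33 such genes, 31 had a row in the table and 27 a level of 10 or more, beside 68.5% of all genes. The same share stands beside the count of each list below. The genes without a row were FASLG and RIPK3, a kinase of necroptosis. Among 5 other death receptor genes, 3 reached that level, from NGFR at 38.3 to TNFRSF1A, the main TNF receptor, at 7403. Of the 4 other ligand genes, TNFSF15 was the highest at 871 and TNF was at 1.22. Of the 2 soluble decoys, TNFRSF11B (osteoprotegerin), which can bind TRAIL, had a mean normalized count of 270, or 130 per kb, and TNFRSF6B, which binds FAS ligand, was at 0.144.

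All 7 listed adaptors and kinases with a row reached a count of 10, from FAIM at 107 to PEA15, a death effector domain protein, at 5701. The same held for all 9 downstream effectors, from CASP6 at 234 to CYCS (cytochrome c) at 10290. BID, which links CASP8 to mitochondria, had a mean normalized count of 818, or 376 per kb. All 5 downstream inhibitors were also present, from BIRC3 at 674 to MCL1 at 20809. XIAP, which blocks the executioner caspases, was at 3196, or 373 per kb.

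**Figure D4:**
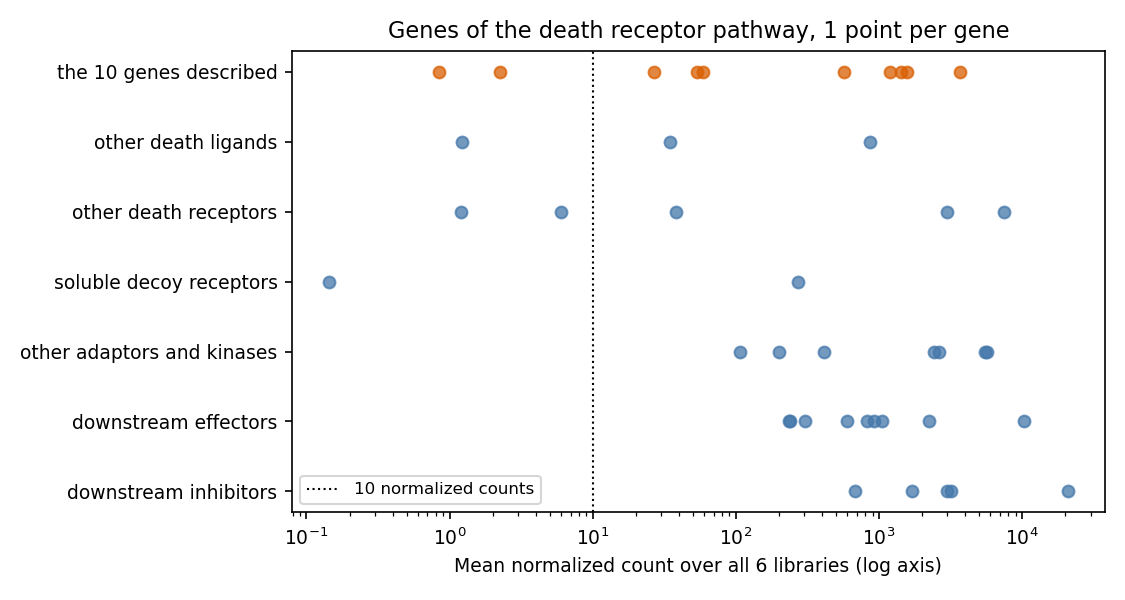
Mean normalized count over all 6 libraries (log axis) of the 10 genes described (top row) and of 6 lists of other pathway genes, with 1 point per gene and a dotted line at 10. Every point of the adaptor, effector and inhibitor lists lies at 107 or above, whereas ligands, receptors and soluble decoys fall on both sides of the line.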

How the data were processed

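RNA-seq libraries of 3 vehicle-treated and 3 DOX-treated cultures were prepared by the authors with a stranded mRNA kit. Per the labels and the paper's methods, reads were aligned to GRCh38 with STAR, and counts were normalized and compared with DESeq2. The labels name a column kit for the RNA and the paper names Trizol. The methods append a number to the build's name without saying what it marks. The gene counter, its strand setting and, apart from that number, the annotation are not given in the sources used here. The deposited signal value is DESeq2's mean normalized count over all 6 libraries, not divided by gene length. The other 5 value columns hold the authors' own comparison of DOX with vehicle (log2 fold change, standard error, statistic, p-value and adjusted p-value) and were not used. No test was therefore made, and library depth is unknown.

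The 10 genes and all gene lists were chosen with earlier results of these data known. All 10 genes were named, and list genes were named where highest or lowest of their list, where without a row, or after their values were seen (ERBB2, BID, XIAP and TNFRSF11B, among others). Percentiles are the percent of genes with a lower value. Positions and lengths came from GENCODE 44 (GRCh38). Of the 19792 symbols, 17729 matched directly, 581 through a RefSeq synonym and 1482 did not match. Shared stretches were exact matches of 50 bases on either strand. The most that 1 library or 1 group can hold follows from the mean of 6 nonnegative values. Alternatives were other lengths, other reference genes for percentiles and a minimum of 50. The functions were tested on simulated data. Python 3.11.15, pandas 2.3.3 and matplotlib 3.10.9 were used. Some genes of the lists are not reported here by name.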

Additional observations from a re-analysis of the deposited data

How the results depend on the processing

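The alternatives changed the length, the genes ranked against, or the minimum level. The ratio of CFLAR to CASP8 was 0.216 per kb of canonical transcript, 0.382 per kb of all exons, 1.19 with no division by length and 1.84 with the median coding transcript, an alternative added after the data were seen. It passed 1 in the last 2 settings. The canonical transcript of CFLAR (14.6 kb) is longer than that of CASP8 (2.66 kb). The median coding transcript of CFLAR (1.23 kb) is shorter than that of CASP8 (1.91 kb). With all exons as the length, 6 of the 10 genes kept their place in the order of levels per kb. Of 20 single levels per kb recomputed with another length, 9 moved by over 1.5 times. Of 18 percentiles, 3 did so, those of TNFSF10, TNFRSF10A and TNFRSF10D ranked only against genes at 10 or more. There they came to 8.80, 14.5 and 15.4. FADD, which lay above the median of all genes, came to 46.4 in that ranking. The median percentile of the 10 genes was 52.7 among all genes and 42.2 among protein-coding genes. For the 8 genes at 10 or more, ranked against such genes only, it was 55.1. At a minimum of 50, 7 of the 10 genes remained, beside 58.9% of all genes. No paired analysis was possible because the column used holds 1 mean over all 6 libraries, and leaving out a replicate or another normalization was not run for the same reason. Levels near 1 normalized count, such as those of CASP10 and TNFRSF10C, carry no error here, and the depth behind them is unknown.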
